A study of Homo sapiens with 37 samples.

Results

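The 7SK small nuclear RNA and 2 IDs annotated as copies of its gene were followed through the pulldowns and inputs of an APEX-Seq study of HEK293T, a cell line from human embryonic kidney. The 3 members were RN7SK (ENSG00000202198) and the IDs ENSG00000200312 and ENSG00000200488, both 7SK pseudogenes by annotation, out of 60483 Ensembl IDs in each count table. RN7SK was taken for its identity, and both copies were selected on measured values, their lower levels in naive pulldowns than in naive inputs. The fall in each naive pulldown is therefore given as a description, without a test. Differences in that fall between fusions were tested, as were naive pulldowns and inputs against those of GFP. These tests use the same libraries that chose the copies. All 3 members passed the filter on low counts, which kept 12427 naive-table IDs and 16678 stress-table IDs.

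APEX-Seq fuses a peroxidase to a protein of interest and lets it attach biotin to nearby RNA, which is then enriched on streptavidin beads (the pulldown) and set against RNA of the same kind of cells without enrichment (the input). All cells were HEK293T and all were labelled alike, with 500 µM biotin-phenol for 30 min and 1 mM H2O2 for 1 min. The naive table held 20 libraries, 2 pulldowns and 2 inputs for each of 5 fusions: APEX-CBX1, C1-APEX, APEX-eIF4A, APEX-eIF4E and APEX-GFP. The stress table held 17 libraries, all from cells with APEX-eIF4A: T0 without stress (2 pulldowns, 2 inputs), heat shock at T4 (1 pulldown, 1 input) and T20 (2 and 2), hippuristanol (2 and 2) and DMSO (2 pulldowns, 1 input). CBX1 is a heterochromatin protein of the nucleus, C1-APEX is anchored at the endoplasmic reticulum, eIF4E binds the mRNA cap, eIF4A is the helicase of cap-dependent initiation, and the GFP fusion has no targeting protein. Hippuristanol inhibits eIF4A, and DMSO is its solvent control. The unit of T, the dose of hippuristanol and the way the fusions were expressed are not given in the labels, and no label ties replicates to separate cultures. Each p-value therefore covers the spread between the libraries at hand, which may be technical.

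7SK is an abundant noncoding RNA made by RNA polymerase III that stays in the nucleus. It is capped by MEPCE, held at its end by LARP7, and serves as the scaffold on which HEXIM proteins keep P-TEFb (CDK9 with a cyclin T) inactive. Release of P-TEFb lets paused RNA polymerase II move into elongation. The genome carries many 7SK pseudogenes, and reads from RN7SK itself can match them. RefSeq places RN7SK on chromosome 6 of GRCh38.p14 from 52995620 to 52995951, as an snRNA gene of 332 bp, and lists 293 7SK pseudogene entries. ENSG00000200312 and ENSG00000200488 could not be tied to any 1 of these entries, and how reads that match several IDs were counted is not given in the sources used here. Counts of both copies are therefore uncertain as measures of transcription from those loci.

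Naive pulldowns held 1718517 to 3276410 counts and naive inputs 1419968 to 2629957, against 707356 to 1221213 in stress-table pulldowns and 4540426 to 7782943 in stress-table inputs. Replicate pulldowns correlated at 0.904 to 0.951 across tested IDs for 4 fusions (on log2 counts scaled to depth; IDs are not independent replicates) and at 0.761 for C1-APEX. Replicate pulldowns of the stress table correlated at 0.613 to 0.730, against 0.943 to 0.966 for its replicate inputs. Comparisons within the stress table thus rest on noisier pulldowns with fewer total counts. The 10 IDs with the most counts in each table held 55.6% to 75.3% of counts in naive libraries. In stress-table libraries they held 6.08% to 30.7%. Totals of the 2 tables therefore do not compare depth for the remaining IDs. The second T0 pulldown stood apart for all 3 members, and comparisons of RN7SK and the copies at T0 are also given without it.

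RN7SK was lower in every naive pulldown than in any naive input, and it was least reduced in the CBX1 pulldown. Levels are given as CPM, counts per 1e+06 counts of the library after TMM scaling, which uses the trimmed mean of log ratios between libraries. In APEX-CBX1 cells RN7SK stood at 3057 and 2189.8 CPM in the pulldowns and at 7445 and 6638 CPM in the inputs. C1-APEX pulldowns held 1380.5 and 2163 CPM, with 8870.1 and 7226 CPM in their inputs. The second C1-APEX pulldown, at 2163 CPM, was close to the lower CBX1 pulldown, and both CBX1 pulldowns were above all 8 others. That order was shared by 4.64% of tested IDs.

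The cytoplasmic initiation factors gave lower pulldown levels than CBX1, and those of eIF4A overlapped those of C1-APEX. APEX-eIF4A pulldowns held 1673 and 1069.9 CPM of RN7SK, with 9597 and 9731 CPM in the inputs. APEX-eIF4E pulldowns held 657 and 1120.4 CPM, with 8622 and 9119.9 CPM in the inputs. The untargeted APEX-GFP gave 796 and 1175 CPM in pulldowns and 6072 and 6401 CPM in inputs. No pulldown overlapped any input, which held for 1.13% of tested IDs and is part of what chose the copies. By counts RN7SK was the 13th most abundant ID in all 10 naive inputs and lay between ranks 14 and 27 in the pulldowns.

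**Figure D1:**
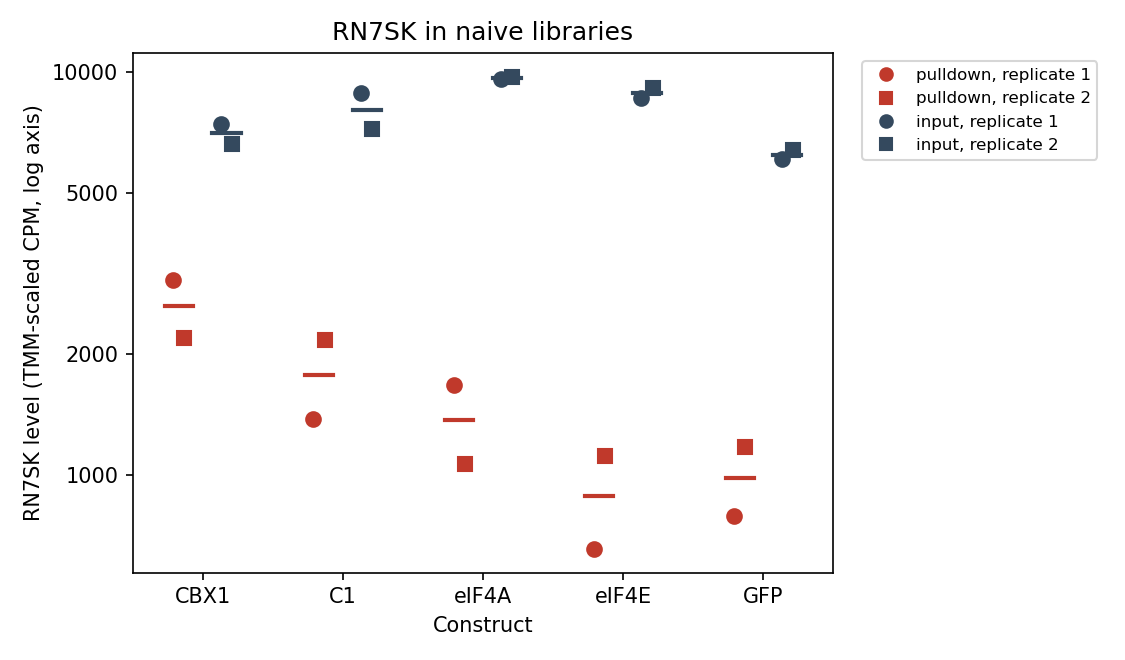
RN7SK level (TMM-scaled CPM, log axis) in the 20 naive libraries, by fusion. Points are libraries, with red for pulldowns and dark blue for inputs, and short lines are means of 2. The CBX1 pulldowns, at 3057 and 2189.8 CPM, are the highest pulldowns, and all inputs lie at 6072 CPM or above.

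Both copies followed RN7SK across fusions at far lower counts. ENSG00000200312 stood at 18.2 and 10.2 CPM in CBX1 pulldowns and at 59.1 and 57.0 CPM in CBX1 inputs. In the 8 other pulldowns it ranged from 2.43 to 9.85 CPM (median 5.52), and in the 8 other inputs from 55.0 to 184 CPM (median 79.8). Both CBX1 pulldowns were thus above the other 8, the lower one narrowly. Its pulldown values rest on 5 to 70 counts a library, so their counting error is wide.

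ENSG00000200488 was the more abundant copy, with 19 to 271 counts in naive pulldowns. It stood at 70.5 and 34.8 CPM in CBX1 pulldowns and at 222 and 217 CPM in CBX1 inputs. The 8 other pulldowns ranged from 9.24 to 41.1 CPM (median 20.2) and the 8 other inputs from 212 to 517 CPM (median 313). The lower CBX1 pulldown fell within the range of the other pulldowns, below the 41.1 CPM of the second C1-APEX pulldown.

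The loss was smallest in the CBX1 fusion for all 3 members. On the log2 scale, RN7SK in pulldown over input was -1.42 ± 0.23 for CBX1, -2.18 ± 0.24 for C1-APEX, -2.82 ± 0.24 for eIF4A, -3.32 ± 0.25 for eIF4E and -2.66 ± 0.24 for GFP (SE of the edgeR fit, 2 libraries a fraction). These are levels 2.68 times lower in the CBX1 pulldown and 9.97 times lower in the eIF4E pulldown than in the input. Scaled by library size alone, the RN7SK values were -1.01 for CBX1, -2.03 for C1-APEX, -2.02 for eIF4A, -2.43 for eIF4E and -2.43 for GFP, so CBX1 kept the smallest loss while the other 4 came closer together. Under library size the median of all tested IDs was 0.41 for CBX1 and 0.89 for eIF4E, and relative to that median RN7SK stood at -1.42 and -3.33.

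ENSG00000200312 showed a log2 loss of -2.00 ± 0.30 in CBX1, -3.06 ± 0.34 in C1-APEX, -3.83 ± 0.33 in eIF4A, -5.01 ± 0.35 in eIF4E and -3.66 ± 0.39 in GFP. ENSG00000200488 showed -2.03 ± 0.25 in CBX1, -3.01 ± 0.28 in C1-APEX, -4.08 ± 0.28 in eIF4A, -4.80 ± 0.29 in eIF4E and -3.72 ± 0.30 in GFP. CBX1 therefore had the smallest and eIF4E the greatest loss for each of the 3 members. The eIF4E pulldown itself was near the GFP pulldown, at -0.15 for RN7SK, -0.06 for ENSG00000200312 and -0.09 for ENSG00000200488. The eIF4E input was above the GFP input by 0.51, 1.29 and 0.99 in that order. For orientation, edgeR called 2.31% of all tested IDs lower in pulldown for CBX1, 3.56% for C1-APEX, 1.02% for eIF4A, 1.29% for eIF4E and 2.09% for GFP at an adjusted p under 0.05. Because these contrasts chose the copies, nothing is read from where the members stand.

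**Figure D2:**
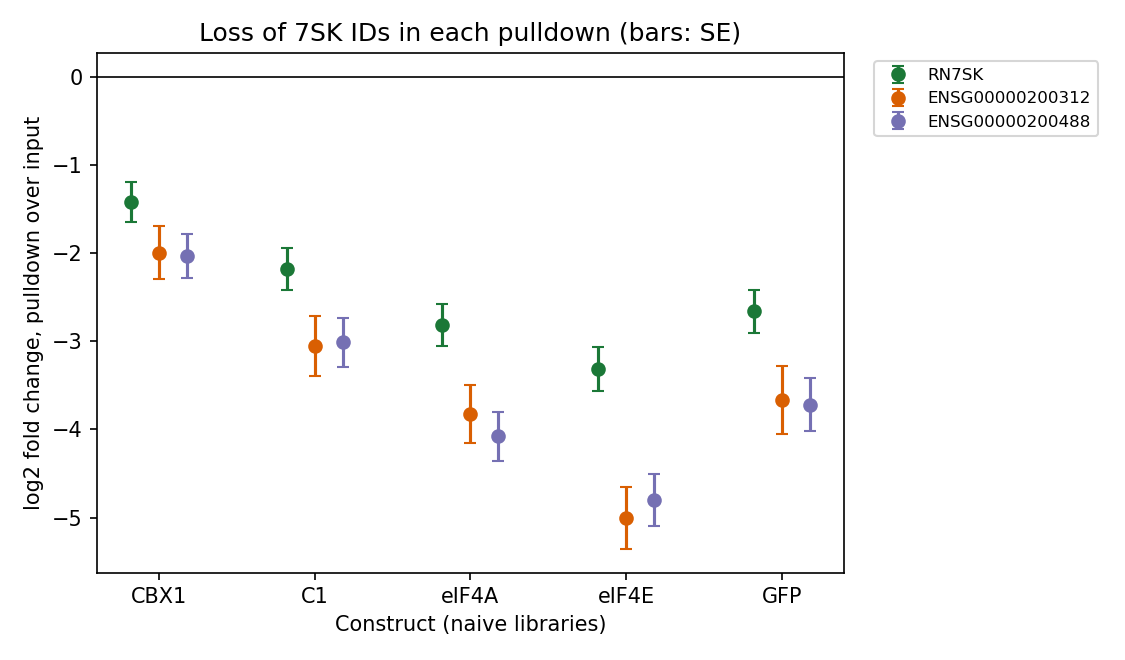
Log2 fold change of pulldown over input for RN7SK and both copies in each naive fusion, from the edgeR fit (points) with SE (bars). CBX1 shows the smallest loss for all 3 IDs (RN7SK -1.42) and eIF4E the greatest (RN7SK -3.32), and both copies lie below RN7SK in each fusion.

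Whether the loss differed between CBX1 and the other fusions was tested as the difference of the pulldown-over-input ratios, by edgeR's quasi-likelihood test with Benjamini-Hochberg adjustment over all tested IDs. Earlier results of these data had shown this pattern, and the copies were chosen on the same naive libraries, so the test describes it and is not independent support. Against the mean of the 4 other fusions, the RN7SK ratio in CBX1 was higher by 1.32 ± 0.25 on the log2 scale (adjusted p 0.00691), a 2.50-fold difference. ENSG00000200312 was higher by 1.89 ± 0.36 (adjusted p 0.00646) and ENSG00000200488 by 1.87 ± 0.29 (adjusted p 0.000432). All 3 members passed, where 0.386% of all tested IDs were called higher. By size of the difference alone, 94.5% of tested IDs lay below RN7SK. The RN7SK call was lost when the first CBX1 input, the second CBX1 input or the first CBX1 pulldown was left out (1.40, 1.23 and 1.06, with adjusted p from 0.0735 to 0.324) and held in the other 17 of 20 such fits. The ENSG00000200312 call was lost without the same 3 libraries (adjusted p 0.0541, 0.0742 and 0.726), and the ENSG00000200488 call without the first CBX1 pulldown (1.25, adjusted p 0.225) or the first C1-APEX pulldown (1.80, adjusted p 0.0526).

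The fusions differed in how clearly they parted from CBX1. Against eIF4E the RN7SK ratio in CBX1 was higher by 1.89 ± 0.32 (adjusted p 0.00141), ENSG00000200312 by 3.01 ± 0.48 (adjusted p 0.000615) and ENSG00000200488 by 2.77 ± 0.38 (adjusted p 7.94e-05), where 0.274% of tested IDs were called higher. The RN7SK and ENSG00000200488 calls held in 8 of 8 fits with a library left out, and ENSG00000200312 in 7 of 8, the exception being the first CBX1 pulldown (2.50, adjusted p 0.0624). Against eIF4A, RN7SK was higher by 1.39 ± 0.32 (adjusted p 0.0491) and ENSG00000200488 by 2.04 ± 0.37 (adjusted p 0.00323), where 0.314% of IDs were called higher. ENSG00000200312, at 1.83, did not pass against eIF4A (adjusted p 0.0934). By size alone, 96.4% of tested IDs lay below RN7SK against eIF4E and 93.3% against eIF4A. The RN7SK call against eIF4A held in only 2 of 8 fits with a library left out, and was lost with replicate number as a block (1.39, adjusted p 0.0629), with library size (1.01) and in DESeq2 (1.42). The ENSG00000200488 call held in 6 of 8 and was lost without the first CBX1 pulldown (1.42, adjusted p 0.286) or the second eIF4A pulldown (1.71, adjusted p 0.0900).

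Against C1-APEX and GFP, no member passed. RN7SK differed from C1-APEX by 0.76 (95% interval 0.10 to 1.41, adjusted p 0.422) and from GFP by 1.24 (interval 0.58 to 1.90, adjusted p 0.153). For ENSG00000200312 the differences were 1.06 from C1-APEX (adjusted p 0.444) and 1.67 from GFP (adjusted p 0.329), and for ENSG00000200488 0.98 (adjusted p 0.359) and 1.69 (adjusted p 0.0958). In these comparisons 0.0563% of IDs were called higher against C1-APEX and 0.137% against GFP. By size alone, 81.0% of tested IDs lay below RN7SK against C1-APEX and 91.5% against GFP. The intervals do not show equal loss. Scaled by library size alone, or with only the libraries compared in the fit, the RN7SK difference from GFP passed (1.42, adjusted p 0.0201, and 1.23, adjusted p 0.0214), and so did that of ENSG00000200488 (1.87, adjusted p 0.0316, and 1.68, adjusted p 0.0214). ENSG00000200488 also passed against GFP in 2 of 8 fits with a library left out, without the second CBX1 pulldown (2.09) or the second GFP pulldown (2.51).

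Set directly against the GFP pulldown, without input correction, RN7SK was higher in the CBX1 pulldown by 1.41 ± 0.23 on the log2 scale (adjusted p 0.000816, edgeR), a 2.66-fold difference. ENSG00000200312 was higher there by 1.72 (adjusted p 0.0415) and ENSG00000200488 by 1.72 (adjusted p 0.00317), where 0.7% of IDs were called higher. Since naive pulldowns had a part in choosing the copies, calls of the copies here are a description and not independent support. Each of these calls was lost without the first CBX1 pulldown (RN7SK 1.16, adjusted p 0.0607) or the first GFP pulldown (RN7SK 1.15, adjusted p 0.0648), and that of ENSG00000200312 also without the second GFP pulldown (2.56, adjusted p 0.0665). In the C1-APEX pulldown RN7SK was higher by 0.85 (adjusted p 0.0261) and ENSG00000200488 by 1.14 (adjusted p 0.0459), in a comparison that called 3.29% of IDs higher. ENSG00000200312, at 1.09, did not pass there (adjusted p 0.177). By size alone, 96.9% of tested IDs lay below RN7SK for the CBX1 pulldown and 84.5% for the C1-APEX pulldown. The RN7SK call against GFP in C1-APEX was lost without the second C1-APEX pulldown (0.44, adjusted p 0.345) or the first GFP pulldown (0.57, adjusted p 0.260), and that of ENSG00000200488 without either C1-APEX pulldown or the first GFP pulldown.

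For the initiation factors the pulldowns themselves gave no member past the threshold against the GFP pulldown. RN7SK differed by 0.48 in eIF4A (adjusted p 0.382) and by -0.15 in eIF4E (adjusted p 0.776). The background was 0.909% of IDs called higher and 0.732% lower for eIF4A, and 2.74% higher and 2.71% lower for eIF4E. In eIF4E the sign of all 3 members turned with library size (0.15 for RN7SK). All 4 of these comparisons share the same GFP pulldowns.

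Inputs were compared with the GFP input in the same way. Since naive inputs had a part in choosing the copies, calls of the copies here are a description and not independent support. RN7SK in inputs was above the GFP input by 0.18 for CBX1 (adjusted p 0.999), 0.37 for C1-APEX (adjusted p 0.723), 0.63 for eIF4A (adjusted p 0.300) and 0.51 for eIF4E (adjusted p 0.292), and none passed. Both copies passed in the eIF4E input, ENSG00000200312 by 1.29 ± 0.26 (adjusted p 0.00583) and ENSG00000200488 by 0.99 ± 0.23 (adjusted p 0.0174), where 1.34% of IDs were called higher. The share called higher was 0.0241% for the CBX1 input, 0.169% for C1-APEX and 0.346% for eIF4A. The second eIF4E input carried these calls: without it the values were 0.60 (adjusted p 0.595) and 0.62 (adjusted p 0.519), and both calls were also lost without either GFP input. The ENSG00000200488 call was also lost with library size (0.62, adjusted p 0.128) and in DESeq2 (1.01, adjusted p 0.0843), and that of ENSG00000200312 with only the libraries compared (1.33, adjusted p 0.0585). In these bulk libraries, fewer cells carrying an RNA and less of it per cell cannot be told apart.

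Counts of each copy as a percentage of RN7SK counts in the same library do not depend on library size or scaling. In naive pulldowns ENSG00000200312 was at 0.306% to 0.636% of RN7SK (median 0.461%), against 0.794% to 2.02% in naive inputs (median 0.882%). ENSG00000200488 was at 1.16% to 2.31% in pulldowns (median 1.75%) and at 2.98% to 5.67% in inputs (median 3.48%). Pulldowns and inputs did not overlap for either copy. The highest value of each copy was in the second eIF4E input. The difference of mean log2 ratios, naive pulldowns minus inputs, was -1.06 for ENSG00000200312 and -1.09 for ENSG00000200488.

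Few IDs behaved this way in the naive table. Since RN7SK itself was reduced, 63.2% of tested IDs had all pulldown ratios above all input ratios, and only 3 IDs (0.0241%) had all pulldown ratios below all input ratios. These were both copies and ENSG00000201428. The fall of the copies in naive pulldowns chose them, so their place among the 3 is a description.

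The stress table gave the opposite order. There ENSG00000200312 was at 1.17% to 2.59% of RN7SK in the 9 pulldowns (median 1.61%) and at 0.430% to 0.807% in the 8 inputs (median 0.535%). ENSG00000200488 was at 4.41% to 10.3% in pulldowns (median 6.54%) and at 1.64% to 3.05% in inputs (median 1.96%). All stress-table pulldowns were above all stress-table inputs for both copies, as for 2.51% of tested IDs. The same difference, stress-table pulldowns minus inputs, was 1.57 for ENSG00000200312 and 1.60 for ENSG00000200488. APEX-eIF4A cells without stress thus gave -1.01 and -1.29 in the naive table and 1.58 and 1.62 at T0 in the stress table, for the 2 copies in that order. The T0 ratios of ENSG00000200312 were 1.42% and 2.59% in pulldowns and 0.559% and 0.735% in inputs. Those of ENSG00000200488 were 4.89% and 10.3% in pulldowns and 1.94% and 2.74% in inputs, so the first T0 pulldown alone was also above both T0 inputs for each copy. The tables came from separate sets of libraries, with different total counts and different shares held by their 10 highest IDs. The part of these features in this difference was not tested.

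**Figure D3:**
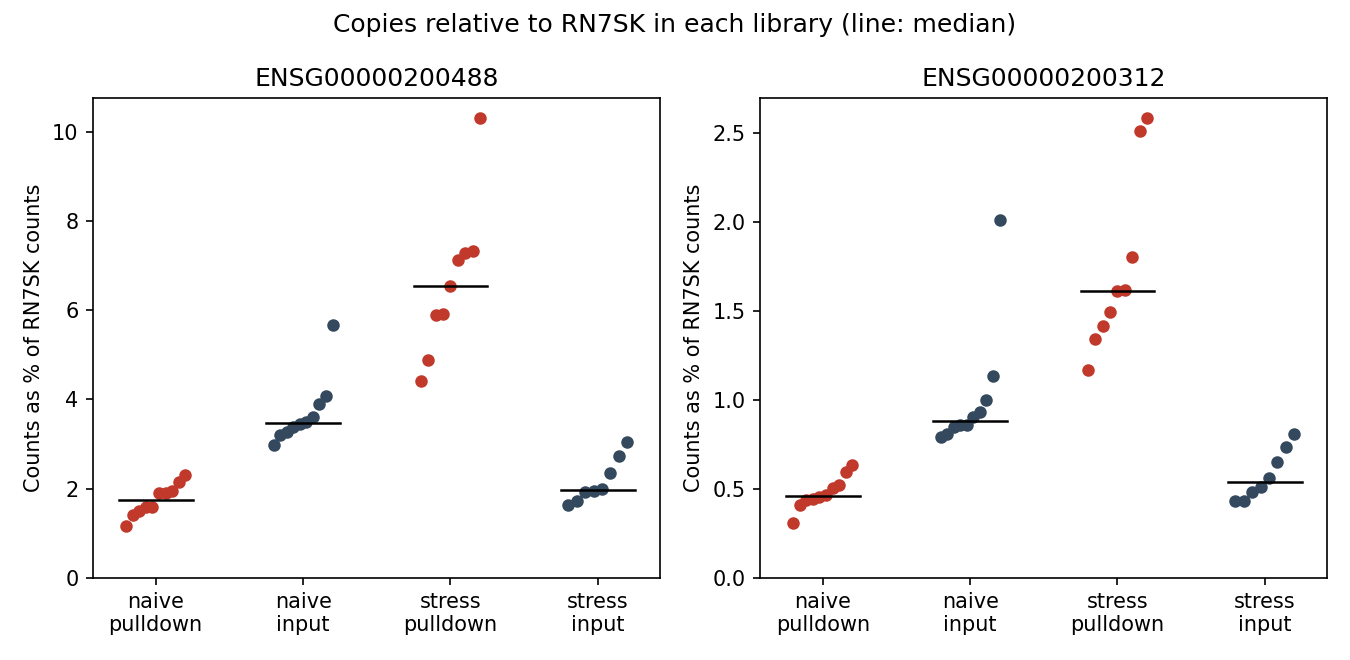
Counts of ENSG00000200312 and ENSG00000200488 as a percentage of RN7SK counts in each library (linear axes from 0), for pulldowns (red) and inputs (dark blue) of the naive and stress tables, with points ordered by value and lines at the medians. Pulldowns lie below inputs in the naive table and above them in the stress table, with medians for ENSG00000200488 of 1.75% and 3.48% against 6.54% and 1.96%.

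Between fractions and tables, the median ratio of the copies to each other moved less (3.69 to 3.95). Within stress-table pulldowns its range was wide. ENSG00000200488 had 3.19 to 4.17 times the counts of ENSG00000200312 in naive pulldowns and 2.81 to 4.28 times in naive inputs. In the stress table the range was 2.60 to 6.27 in pulldowns and 3.47 to 4.12 in inputs. In the second T0 pulldown ENSG00000200488 reached 10.3% of RN7SK (95% exact binomial interval 9.46% to 11.2%, for counting error only), against 4.89% (4.16% to 5.70%) in the first.

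In the stress table, which had no part in the choice of members, RN7SK was called lower in pulldown than in input for T20, hippuristanol and DMSO, and neither copy was called in any condition. RN7SK was also far more prominent in these inputs, between ranks 1 and 5, against ranks 14 to 21 in the pulldowns. At T0 the RN7SK pulldowns held 5173 and 13863 CPM, with 18937 and 24119 CPM in inputs. The second T0 pulldown had the lowest TMM factor of the stress table (0.593), which raises its CPM. By library size alone the T0 pulldowns held 4492 and 8202 RN7SK counts per 1e+06. The T4 pulldown held 2766 CPM and its input 29790 CPM, with 1 library each and hence no test. T20 pulldowns held 2910.3 and 3163 CPM, with 23162 and 16212 CPM in inputs. Every RN7SK pulldown was below every input of its own condition. How many tested IDs shared that order was not counted, so it is not read as particular to RN7SK.

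With hippuristanol the RN7SK pulldowns held 2740.5 and 4026 CPM and the inputs 9462 and 10703 CPM. With DMSO the pulldowns held 2356 and 2687 CPM and the single input 8267 CPM. The hippuristanol and DMSO inputs were below all inputs of the heat shock series. The share of tested IDs with this order was not counted, so nothing particular to RN7SK is read from it.

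On the log2 scale RN7SK in pulldown over input was -1.18 ± 0.31 at T0 (adjusted p 0.160, edgeR) and -2.70 ± 0.33 at T20 (adjusted p 4.45e-05). It was -1.58 ± 0.32 with hippuristanol (adjusted p 0.0291) and -1.71 ± 0.36 with DMSO (adjusted p 0.0423). The share of tested IDs called lower was 0.06% at T0, 0.12% at T20, 0.006% with hippuristanol, where RN7SK was the 1 ID, and 0.126% with DMSO. The share called higher was 0.3%, 0.252%, 0.246% and 0.174% in the same order. By size of the fall, RN7SK was less unusual than by calls. Of tested IDs, 36.0% had a lower log2 value than RN7SK at T0, 15.8% at T20, 19.6% with hippuristanol and 29.8% with DMSO. The median of all tested IDs was -0.55, -0.29, -0.36 and -0.46 in these comparisons, and relative to it RN7SK stood at -0.63, -2.41, -1.21 and -1.25. The T20 call held in 4 of 4 fits with a library left out, while the hippuristanol call was lost in 4 of 4 (-1.36 to -1.92) and the DMSO call in 2 of 2 (-1.66 and -1.85). Without the second T0 pulldown the T0 value was -2.09 (adjusted p 0.00356), a call that the full set did not give.

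Neither copy was called lower or higher in these pulldowns. ENSG00000200312 stood at 73.3 and 358 CPM in T0 pulldowns and at 106 and 177 CPM in T0 inputs, at 37.1 CPM against 128 CPM at T4, and at 52.5 and 37.0 CPM against 151 and 70.0 CPM at T20. Its log2 values were 0.60 at T0, -1.30 at T20, 0.03 with hippuristanol and -0.02 with DMSO. ENSG00000200488 stood at 253 and 1429 CPM in T0 pulldowns and at 368 and 660 CPM in T0 inputs, with log2 values of 0.71, -0.87, -0.08 and -0.14 in the same order of conditions. Without the second T0 pulldown the T0 values turned to -0.98 for ENSG00000200312 and -1.05 for ENSG00000200488, and neither passed. Adjusted p for the copies ran from 0.379 to 1. At T0 the second pulldown held 358 CPM of ENSG00000200312 and 1429 CPM of ENSG00000200488, and no other library of the stress table reached these levels.

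**Figure D4:**
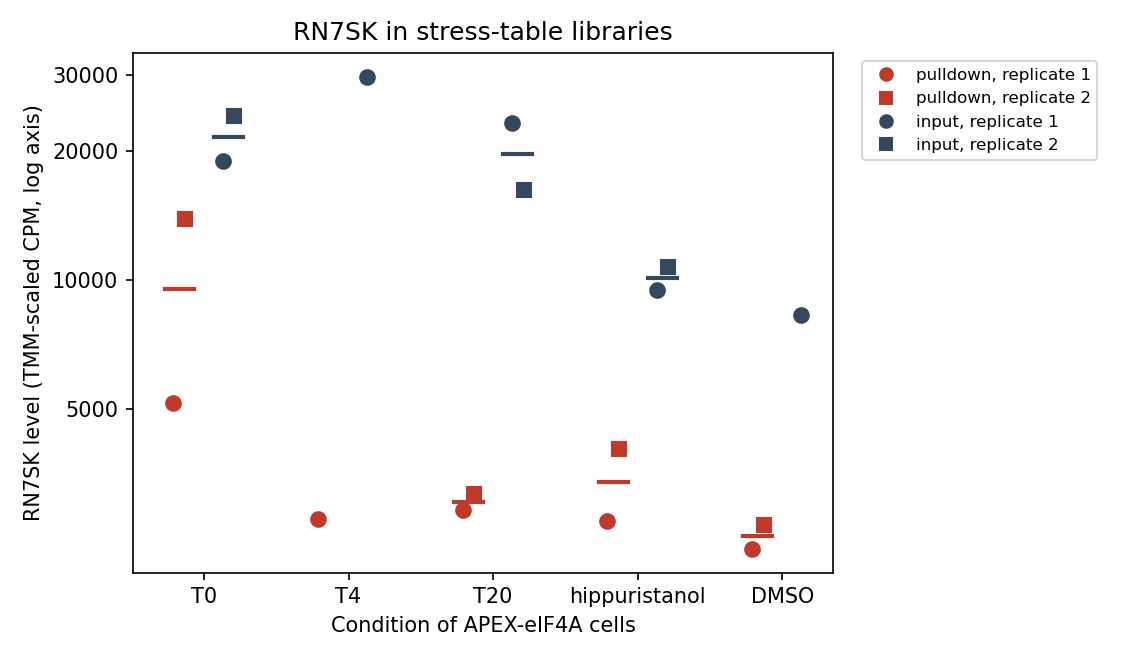
RN7SK level (TMM-scaled CPM, log axis) in the 17 stress-table libraries of APEX-eIF4A cells, by condition. Points are libraries, with red for pulldowns and dark blue for inputs, and short lines are means where there are 2. The second T0 pulldown, at 13863 CPM, stands above the other 8 pulldowns, which lie between 2356 and 5173 CPM.

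T20 heat shock was compared with T0 in each fraction. RN7SK in inputs differed by -0.13 ± 0.31 (95% interval -0.77 to 0.51, adjusted p 1), where 0.018% of IDs were called higher and 0.024% lower. In pulldowns it was lower at T20, with a log2 difference of -1.65 ± 0.32 (adjusted p 0.0456, edgeR). Of tested IDs, 0.048% were called lower there, and 14.7% had a lower value than RN7SK. The RN7SK call rested on the second T0 pulldown, without which the value was -0.77 (adjusted p 0.248), and it was also lost without either T20 pulldown. ENSG00000200312, at -2.26 (adjusted p 0.143), and ENSG00000200488, at -1.92 (adjusted p 0.140), did not pass. Without the second T0 pulldown these values were -0.71 (adjusted p 0.610) and -0.18 (adjusted p 0.984), and without the first they were -3.00 (adjusted p 0.0423) and -2.68 (adjusted p 0.0271). Adjusted for input, RN7SK stood at -1.52 (adjusted p 0.676), and at -0.63 (adjusted p 0.675) without the second T0 pulldown. ENSG00000200312 stood at -1.90 and ENSG00000200488 at -1.58, and at -0.35 and 0.16 without that library. In the full fit edgeR called 0 of 16678 IDs in that comparison, with 1226 at an unadjusted p under 0.05.

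Hippuristanol pulldowns did not part from DMSO pulldowns for any member. RN7SK differed by 0.42 (95% interval -0.22 to 1.07, adjusted p 0.552), ENSG00000200312 by 0.77 (adjusted p 0.620) and ENSG00000200488 by 0.65 (adjusted p 0.615). In this comparison edgeR called 0 of 16678 IDs (0%), with 2394 at an unadjusted p under 0.05.

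The IDs whose levels were most like RN7SK over the 20 naive libraries were sought among 2098 other IDs whose mean log2 CPM reached 5. ENSG00000201793 (Pearson r 0.996) and ENSG00000201428 (0.996) came first. As pulldowns and inputs form separate clusters, r is also given within each. Within the 10 pulldowns it was 0.977 for ENSG00000201793 and 0.985 for ENSG00000201428, and within the 10 inputs 0.951 and 0.885. For the copies the same values were 0.951 and 0.806 for ENSG00000200488, which was the 5th most alike, and 0.950 and 0.659 for ENSG00000200312, whose mean level was under the minimum. ENSG00000201793 stood at 1.26% to 2.01% of RN7SK counts in pulldowns and at 1.54% to 1.89% in inputs, ranges that overlap, which those of both copies did not. ENSG00000201428 stood at 4.51% to 6.52% in pulldowns and at 7.11% to 11.0% in inputs. The tables do not give names for these IDs.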

How the data were processed

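The authors deposited unnormalized counts for versioned Ensembl IDs. Cutadapt, HISAT2, featureCounts and GRCh38 are named in the submitters' processing notes as behind these deposited counts, and the libraries were directional per the labels. The sources used here give no versions, strand setting or rule for reads matching several IDs. The members and gene lists were chosen with earlier results of these data known. RN7SK and both copies were always named, plus the 2 other IDs most correlated with RN7SK over naive libraries. Lists of 7SK-binding proteins, other polymerase III RNAs, other 7SK copies and cell type markers were not applied, because 0 IDs matched the RefSeq table by Ensembl ID, so the HEK293T label was not checked against markers.

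Groups and replicate numbers came from sample titles. Hippuristanol inputs carry a heat shock label and were grouped by title. The name i4A_2 occurs in the descriptions of 2 samples, and was read in the stress table as the DMSO input, in the naive table as eIF4A input 2. Each table was fitted in edgeR 4.0.16 (R 4.3.3) with filterByExpr, TMM, a mean per group and robust quasi-likelihood tests, 2-sided, with Benjamini-Hochberg adjustment over all tested IDs at 0.05. The code was tested on simulated data. Likeness used log2 CPM with a prior count of 2. Alternatives were DESeq2 1.42.0, library size, TMM without the 10 highest IDs and the members, a replicate block, only the libraries compared, no count filter, the 3 members summed, and each library left out. Deviations of same-numbered naive inputs and pulldowns correlated at -0.07 to 0.14, so numbers were not taken to pair them. Between stress-table inputs deviations correlated at 0.636 for hippuristanol with T20, -0.787 for hippuristanol with T0 and -0.699 for T0 with T20. Replicate differences of these inputs were thus related, alike for hippuristanol and T20 and opposite for T0. The reason was not tested. The main fits did not model this pattern, and the replicate block used the given numbers and could not account for it. Replicate pairs differed by a chi-square per ID of 1.31 to 77.3, and none was identical. Intervals of log2 differences come from the edgeR fit, over libraries. Binomial intervals of count ratios cover counting error only, as there are no molecular identifiers.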

Additional observations from a re-analysis of the deposited data

Results flagged for a closer look

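The pulldown-over-input ratio differed between CBX1 and other naive fusions by a test of the difference itself (edgeR, adjusted over all tested IDs). Against eIF4E the CBX1 ratio was higher by 1.89 for RN7SK, 3.01 for ENSG00000200312 and 2.77 for ENSG00000200488. Against eIF4A it was higher by 1.39 for RN7SK and 2.04 for ENSG00000200488. Against the mean of the 4 other fusions it was higher by 1.32 for RN7SK, 1.89 for ENSG00000200312 and 1.87 for ENSG00000200488. The copies were chosen on these naive libraries with the pattern known, so these differences are no independent evidence. Against C1-APEX and GFP no member passed, and the RN7SK call against eIF4A held in 2 of 8 fits with a library left out and was lost with a replicate block, library size and DESeq2.

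Relative to RN7SK, both copies moved in opposite directions in the 2 tables, in cells with the same APEX-eIF4A fusion and no stress. ENSG00000200312 in pulldown minus input was 1.58 at T0 of the stress table and -1.01 for naive eIF4A. ENSG00000200488 was 1.62 at T0 and -1.29 for naive eIF4A. This difference was not tested. In the second T0 pulldown, which stood apart, the ratios to RN7SK were 2.59% and 10.3%, against 1.42% and 4.89% in the first.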

How the results depend on the processing

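The 84 results gave 498 values under alternatives that keep all libraries, of which 425 were counted as unchanged. For tested results unchanged meant the same direction and side of the threshold. For untested results it meant a shift smaller than the spread between libraries, without a change of direction. All 15 reversals of sign are given here, and the cause of the changes was not tested.

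With library size, RN7SK in naive pulldown over input was -1.01 for CBX1, -2.43 for eIF4E and -2.02 for eIF4A. CBX1 minus eIF4A was 1.01, C1-APEX over GFP pulldown 0.63 and T20 over T0 in pulldowns -1.10, none of which passed, while CBX1 minus GFP (1.42) and T0 pulldown over input (-1.77) passed. Signs turned with library size for ENSG00000200312 (-0.0082) and ENSG00000200488 (-0.032) in CBX1 over GFP input, for RN7SK (0.15), ENSG00000200312 (0.23) and ENSG00000200488 (0.20) in eIF4E over GFP pulldown, for ENSG00000200312 in T0 (-0.014) and hippuristanol (-0.43) pulldown over input, and for RN7SK in T20 over T0 input (0.076). Without a count filter RN7SK calls were lost for CBX1 minus eIF4E (1.84), eIF4A (1.36) and the mean of 4 (1.34), for the CBX1 (1.43) and C1-APEX (0.77) pulldowns over GFP, for T20 (-2.65), hippuristanol (-1.51) and DMSO (-1.63) pulldown over input, and for T20 over T0 in pulldowns (-1.68). Signs turned for ENSG00000200488 in CBX1 over GFP input (-0.0092) and ENSG00000200312 in DMSO pulldown over input (0.068).

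With only the libraries compared, RN7SK passed in CBX1 minus GFP (1.23) and in the C1-APEX (0.39), eIF4E (0.53) and eIF4A (0.67) inputs over GFP, and did not in C1-APEX over GFP pulldown (0.86), T20 (-2.64) and hippuristanol (-1.43) pulldown over input, or T20 over T0 in pulldowns (-1.71). Signs turned for ENSG00000200488 with hippuristanol (0.061) and ENSG00000200312 with DMSO (0.079). DESeq2 did not call RN7SK in CBX1 minus eIF4A (1.42), C1-APEX over GFP pulldown (0.87) or DMSO pulldown over input (-1.43), and turned the sign for ENSG00000200488 with hippuristanol (0.087) and DMSO (0.15) and for ENSG00000200312 with DMSO (0.27). With the 3 members summed, hippuristanol (-1.50) and DMSO (-1.65) did not pass. For the copies, these alternatives gained ENSG00000200488 in CBX1 minus GFP (4 alternatives, 1.68 to 1.87), ENSG00000200312 in CBX1 minus eIF4A (3, 1.80 to 1.85) and, with DESeq2, both in T20 over T0 in pulldowns (-2.30 and -1.96). The copies also lost calls, not all of them listed here. With library size, ENSG00000200488 did not pass in C1-APEX over GFP pulldown (0.93, adjusted p 0.0779, edgeR). With replicate number as a block, the RN7SK call for CBX1 minus eIF4A (1.39) and the ENSG00000200488 call for C1-APEX over GFP pulldown (1.14) were lost, and no other call changed.

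With each library left out in turn, RN7SK ranged from 1.09 to 1.73 in CBX1 minus eIF4A, from 1.06 to 1.53 in CBX1 minus the mean of 4, from 1.15 to 1.73 in CBX1 over GFP pulldown and from 0.44 to 1.14 in C1-APEX over GFP pulldown. In eIF4E over GFP pulldown RN7SK ranged from -0.59 to 0.19, ENSG00000200312 from -0.55 to 0.78 and ENSG00000200488 from -0.58 to 0.73. In eIF4A over GFP pulldown ENSG00000200312 ranged from -0.074 to 1.25 and ENSG00000200488 from -0.17 to 1.13. At T0, pulldown over input ranged from -2.09 to -0.66 for RN7SK, from -0.98 to 1.31 for ENSG00000200312 and from -1.05 to 1.45 for ENSG00000200488. With hippuristanol it ranged from -1.92 to -1.36, from -0.19 to 0.29 and from -0.50 to 0.19 for these 3 members, and with DMSO from -1.85 to -1.66 for RN7SK and from -0.22 to 0.081 for ENSG00000200312. T20 over T0 ranged in inputs from -0.41 to 0.11 for RN7SK, from -1.01 to 0.096 for ENSG00000200312 and from -0.95 to 0.14 for ENSG00000200488, in pulldowns from -2.19 to -0.77 for RN7SK, and input-adjusted from -2.34 to 0.16 for ENSG00000200488.

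Pulldown counts of ENSG00000200312 were 5 to 70 in naive and 28 to 150 in stress-table libraries, which limits its precision. Groups of 2 libraries limit every comparison, and T4, with 1 library a fraction, has no test.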
